A study of Mus musculus with 8 samples.

Results

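Integrins are cell surface receptors made of an alpha and a beta subunit that tie the extracellular matrix to the actin cytoskeleton. The subunits described here are 10 genes that were chosen by name, with earlier results of these data known. Itga1, Itga2, Itga10 and Itga11 have products that pair with beta 1 and bind collagens. Itga5 encodes the alpha subunit of the classical fibronectin receptor. The product of Itgav binds fibronectin, vitronectin and the latent form of TGF-beta through their RGD motifs. Those of Itga3 and Itga6 bind mainly laminins, and the beta subunits are Itgb1 and Itgb3. In cartilage, the heterodimer of alpha 10 and beta 1 is a receptor for collagen II, and beta 1 integrins help chondrocytes to hold their shape and columns. Of the 10 genes, 9 had at least 1 probe set that the platform annotation ties to a single symbol, out of 18193 such genes on the array. Those 9 genes held 26 probe sets. Itga11, the collagen receptor known from fibroblasts, was not analysed here.

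The RNA came from primary chondrocytes that were released from FVB embryo ribs with collagenase and trypsin at stage E18.5. The labels give 4 control samples as wild type and 4 samples as Hoxc8 transgenic, and 4 litters each gave 1 sample of either genotype, so the comparison was paired by litter. The litters are called litters 1 to 4 here, after the replicate numbers of the labels, and the 4 replicates of a genotype are thus separate litters. The sources used here do not give the promoter of the transgene, the number of embryos in a sample or the number of founder lines. Hoxc8, the homeobox gene that the transgene carries, gave 4112, 3066, 3755 and 3143 in the controls of litters 1 to 4 and 4096, 3399.96, 3810.4 and 4235 in the transgenic samples, a difference of 0.15 log2 (SE 0.08) that did not pass (limma adjusted p = 0.9998), so the signal of Hoxc8 checks the genotype labels little.

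The values are MAS5 signals, linear intensities per probe set, with medians between 107 and 121 on the 8 arrays. All 10 chondrocyte markers listed for the label check lay over the signal filter, with Col2a1, the main cartilage collagen, between 39184 and 63257. Other cells of the rib cage were also measured: the 10 skeletal muscle markers summed to between 29309 and 44276 per sample, and 9 of 10 markers of perichondrium and fibroblasts lay over the filter. Of the 7 epithelial markers, 6 lay under it, among them Krt5, Krt14 and Krt15. In RNA from a mixed digest, fewer cells of a type and less RNA per cell cannot be told apart.

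Hoxc8 encodes a homeodomain protein, and homeodomains of the Hox class bind DNA around the core TAAT. Promoter sequences from RefSeq, from 250 bases before to 50 bases after a transcript start on build GRCm38.p6, were found for 8 of the 10 genes, with 9 promoters in all since Itga3 has 2. The core, searched as TAAT on both strands, occurred in 2 of these 9 promoters and in 58.03% of the 32851 promoters in the table. The 2 promoters that hold it belong to the cartilage collagen receptor Itga10 (chr3:96645334-96645633, plus strand) and to the fibronectin receptor Itga5 (chr15:103366742-103367041, minus strand), and are shown because they are the places where the letters of the core stand. Capitals mark the core, which appears as ATTA in the direction of the gene, with 2 matches in Itga10 and 1 in Itga5. These matches describe the letters in this window and no binding was measured.
Itga10: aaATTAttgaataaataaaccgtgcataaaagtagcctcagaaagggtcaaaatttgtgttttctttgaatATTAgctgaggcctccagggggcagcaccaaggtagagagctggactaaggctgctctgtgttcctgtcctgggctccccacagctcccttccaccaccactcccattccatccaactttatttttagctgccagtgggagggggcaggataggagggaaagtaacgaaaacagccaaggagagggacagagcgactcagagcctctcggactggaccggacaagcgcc
Itga5: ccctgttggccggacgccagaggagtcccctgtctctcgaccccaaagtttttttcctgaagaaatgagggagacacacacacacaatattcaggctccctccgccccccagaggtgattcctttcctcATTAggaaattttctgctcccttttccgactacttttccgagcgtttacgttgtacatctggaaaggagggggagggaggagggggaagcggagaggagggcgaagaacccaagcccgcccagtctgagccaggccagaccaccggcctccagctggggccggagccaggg

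The first question was which integrin subunits gave a signal that could be compared. A probe set was tested where its mean over all 8 arrays reached 110, which is the median of such means, and 12 probe sets of 6 members passed: Itga1, Itga5, Itga6, Itga10, Itgav and Itgb1. All probe sets of Itga2, Itga3 and Itgb3 stayed under the filter, together with some further probe sets of Itga5, Itgav and Itgb1, 14 in all. Signals of different integrin probe sets were not set against each other, since probes differ in how well they bind. The marker sums add such signals within a sample and so follow the brightest probe sets of each list.

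Among the collagen-binding alpha subunits, Itga10 was measured by 1 probe set. Its signals were 1898, 1538, 1982 and 1679.96 in the controls of litters 1 to 4 and 1978, 1844, 1907 and 1515 in the transgenic samples. The genotypes overlapped, and the transgenic sample was the higher one in litters 1 and 2 and the lower one in litters 3 and 4. The means were 1774 ± 203 (SD, n = 4) and 1811 ± 205, and the fitted difference of transgenic minus control, on the log2(signal + 22.2) scale used for every difference here, was 0.03 (SE 0.09). Its 95% interval ran from 0.895-fold to 1.16-fold, and without litter 2 the sign turned (-0.048 log2).

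Itga1, whose product pairs with beta 1 and binds collagen IV and other collagens, had 2 tested probe sets. The first, 1455251_at, gave 757, 788, 548 and 687 in controls and 612, 706, 672 and 718 in transgenic samples. The genotypes overlapped here too, with the transgenic sample lower in litters 1 and 2 and higher in litters 3 and 4, and the difference was -0.03 log2 (SE 0.11). The second, 1439713_at, gave 123, 97.5, 157 and 110.2 in controls and 125, 173.1, 101 and 191 in transgenic samples, of which 3 exceeded their litter's control, with a fitted 0.22 log2 (SE 0.25). That value was 0.053 without litter 2, 0.060 without litter 4 and 0.47 without litter 3. The fitted differences of the 2 probe sets of Itga1 had opposite signs, and both intervals included 0. Without litter 1 or litter 2 the first was positive as well (0.064 and 0.016 log2).

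Itga2, the collagen receptor subunit of platelets and epithelia, was measured by 1 probe set between 11.9 and 80.5, with no sample over the filter signal. Of the markers of megakaryocytes and platelets, Pf4 lay between 331 and 671 and Itga2b, the platelet integrin subunit, between 152 and 356, while Ppbp, Gp9, Treml1 and Tubb1 lay under the filter on average. The 8 measured markers summed to 1233 to 1409 in control and 1089 to 1558 in transgenic samples.

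Among the fibronectin and RGD receptors, Itga5 had 2 tested probe sets, with fitted differences of opposite sign. The probe set with the higher mean, 1423267_s_at, has a suffix that marks probes shared by several transcripts. Its signals were 336, 340.4, 313 and 284 in controls and 462, 367, 364 and 227 in transgenic samples. The transgenic sample was higher in litters 1, 2 and 3 and lower in litter 4, with a difference of 0.11 log2 (SE 0.15). It was 0.0032 log2 without litter 1 and 0.25 without litter 4. The other, 1458996_at, gave 289, 294, 209 and 105 in controls and 144, 227, 135 and 97.6 in transgenic samples. Here the transgenic sample was the lower one in all 4 litters, although the genotypes overlapped, and the difference was -0.47 log2 (SE 0.19, limma unadjusted p = 0.0283, adjusted p = 0.9998).

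Itgav also had 2 tested probe sets. For 1452784_at the controls gave 5725, 4437, 7198 and 6158 and the transgenic samples 5668, 6390.2, 7688 and 7087. The transgenic sample was higher in litters 2, 3 and 4 and slightly lower in litter 1, at -0.01 log2. The means were 5879.5 ± 1143 (SD, n = 4) and 6708 ± 873, a difference of 0.20 log2 (SE 0.09, limma unadjusted p = 0.0355, adjusted p = 0.9998), and without litter 2 it was 0.09 log2. For 1421198_at the controls gave 461, 436, 594 and 312 and the transgenic samples 539, 469.7, 554 and 219, which differ by -0.06 log2 (SE 0.14), and by 0.074 without litter 4, so the sign of this probe set depended on that litter. Both samples of litter 3 stood high and both samples of litter 4 stood low for this probe set, whichever the genotype. Under the filter, Itgav 1432678_at lay between 4.19 and 63.3. In a fit without the filter it stood at -0.73 log2 (SE 0.33, limma unadjusted p = 0.0485, adjusted p = 0.9994). The other dim probe sets of Itgav, 1432296_a_at and 1432679_at, stood at -0.07 and -0.08 log2.

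Itgb1 encodes the beta subunit that most of the alpha chains named here pair with, and it had 3 tested probe sets. For 1452545_a_at, with the highest mean, the controls gave 3045, 2897, 3529 and 3716 and the transgenic samples 3274, 2601, 3121 and 2738, a difference of -0.17 log2 (SE 0.09). For 1426918_at the controls gave 2212, 2299, 3333 and 2957 and the transgenic samples 2670.1, 2453, 2843 and 2165, a difference of -0.08 log2 (SE 0.11). The transgenic sample was lower in litters 3 and 4 for both, and in litter 2 for the first only. The third, 1427771_x_at, whose suffix marks probes that can bind several transcripts, gave 169.8, 162, 228 and 243 in controls and 143, 48.4, 190.4 and 179 in transgenic samples. Its difference was -0.56 log2 (SE 0.22, limma unadjusted p = 0.0285, adjusted p = 0.9998) and was -0.28 log2 without litter 2, whose transgenic sample was the lowest of the 8. The fitted difference was negative for all 3 probe sets of Itgb1, and none passed. Without litter 4 the value of 1426918_at was 0.045 log2 and that of 1452545_a_at -0.075, and without litter 1 the latter was -0.26.

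Itgb3, the partner of alpha v on osteoclasts and of alpha IIb on platelets, had 2 probe sets under the filter. For 1455257_at the controls gave 117, 77.8, 116 and 51.9 and the transgenic samples 83.4, 53.1, 86.8 and 64.1. Signals of 1421511_at ran from 9.92 to 143, with the highest value in the transgenic sample of litter 2, and the genotypes overlapped for both probe sets. Of 8 osteoclast markers, Ctsk lay between 1134 and 2293 and Acp5 between 368 and 653, while Ocstamp, Dcstamp, Atp6v0d2 and Tnfrsf11a lay under the filter on average. The 8 summed to 2275 to 3337 in control and 1900.4 to 2983 in transgenic samples.

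Among the laminin receptors, Itga6 had 2 tested probe sets. For 1422445_at the controls gave 1976, 1743, 1917 and 1705 and the transgenic samples 1818, 1842, 1858 and 1722, means of 1835 ± 132 (SD, n = 4) and 1809.8 ± 61.0, with a difference of -0.02 log2 (SE 0.08). Its interval ran from 0.879-fold to 1.11-fold. For 1422444_at the difference was -0.06 log2 (SE 0.10). Itga3 had 3 probe sets under the filter, of which 1460305_at gave 67.8, 25.8, 15.2 and 15.0 in controls and 35.6, 69.2, 88.8 and 81.4 in transgenic samples. It was higher in the transgenic samples of litters 2, 3 and 4 and lower in that of litter 1, and in a fit without the filter the difference was 0.83 log2 (SE 0.40, limma adjusted p = 0.9994), while the other 2 probe sets of Itga3 stood at -0.03 and 0.14. Basal keratinocytes are a known site of Itga3 and Itga6, and the 7 epithelial markers summed to 508 to 723 in control and 392 to 816 in transgenic samples. Of these, Epcam alone lay over the filter, with means of 411 in control and 304 in transgenic samples. The keratinocyte markers Krt5, Krt14, Krt15 and Trp63 lay under it.

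**Figure D1:**
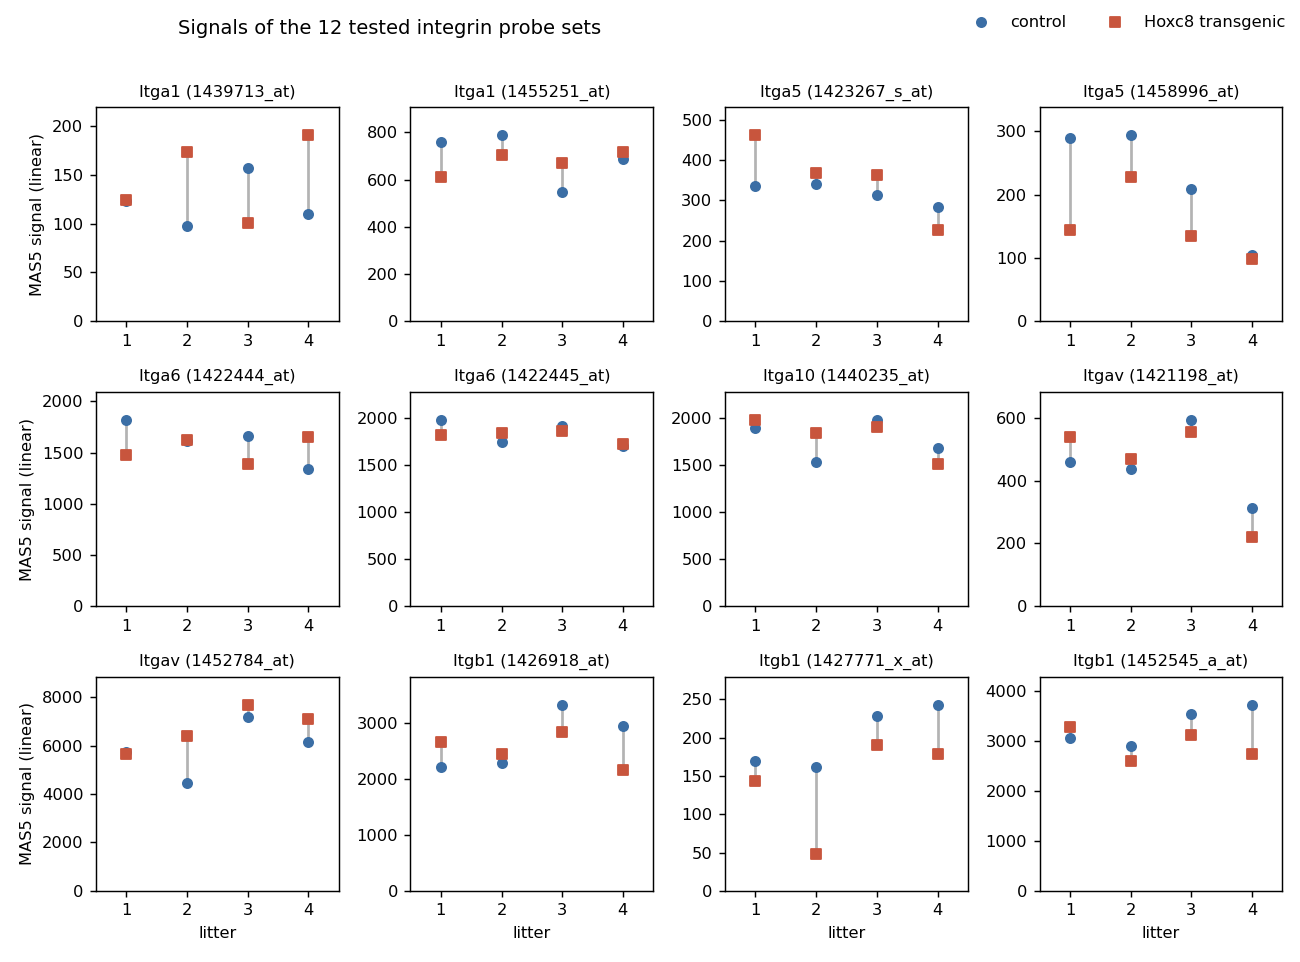
MAS5 signal (linear, from 0) of the 12 integrin probe sets over the filter, by litter, with circles for control and squares for Hoxc8 transgenic samples and a grey line joining the pair of a litter. The genotypes overlap in every panel, and the samples of litter 4 are the lowest pair for Itgav 1421198_at, at 312 and 219.

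**Figure D2:**
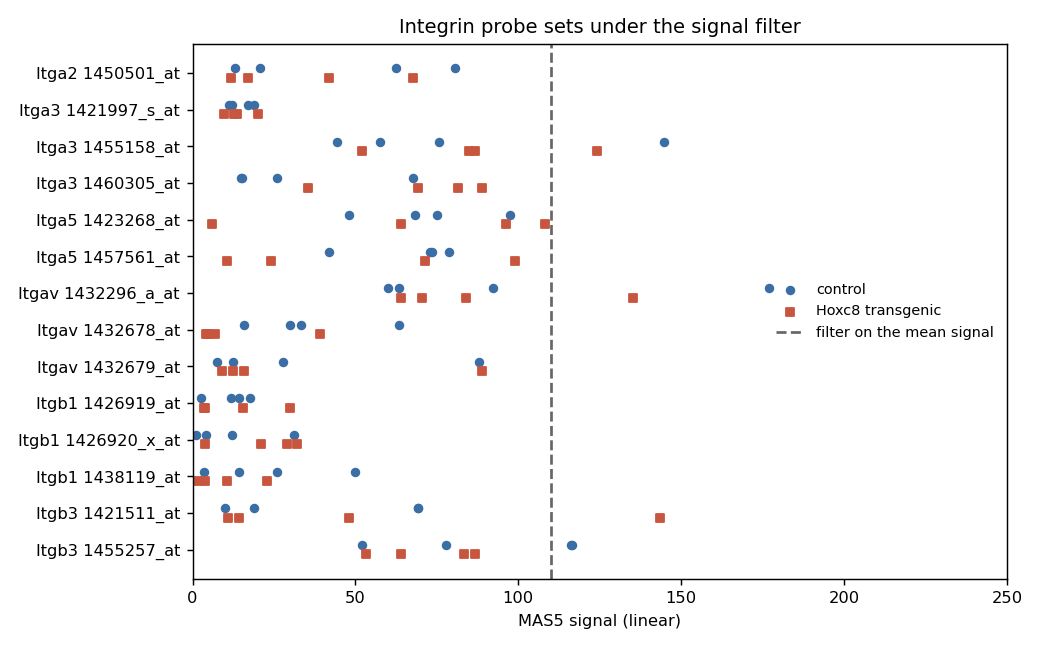
MAS5 signal (linear) of the 14 integrin probe sets under the filter, with 8 samples a row and the filter on the mean signal, 110, as a dashed line. Single samples reach up to 177, but every row has a mean to the left of the line.

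Over the members, the paired comparison of transgenic with control gave no call. By limma with litter as a block, 0 of 12 integrin probe sets and 0 of 22519 probe sets in all (0%) passed an adjusted p of 0.05. An unadjusted p under 0.05 was seen for 3 of the 12, Itga5 1458996_at, Itgav 1452784_at and Itgb1 1427771_x_at, beside 752 of all probe sets (3.34%). Without the block it was 0 of the 12 and 246 of all (1.09%), and 0 passed. Differences were negative for 8 of the 12 and positive for 4, with a median of -0.04 log2 beside -0.0035 log2 over all probe sets tested. The sign was the same in all 4 litters for 2 of the 12, Itga5 1458996_at and Itgb1 1427771_x_at, beside 10.6% of all probe sets, and the genotypes were without overlap for 0 of the 12, beside 1.02% of all.

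The intervals say how large a difference these arrays leave possible. The 95% interval stayed inside 1.5-fold up or down for 9 of the 12 integrin probe sets, and inside 2-fold for 11, beside 83.2% and 98.5% of all probe sets. The 3 outside 1.5-fold were Itga1 1439713_at, Itga5 1458996_at and Itgb1 1427771_x_at. With 4 pairs, an exact sign-flip permutation test of a single probe set cannot go below p = 0.125, so single values were tested only in the fit across all probe sets. Nothing in the labels says whether a sample is 1 embryo or a pool. With litter as a block, p-values between genotypes set the mean difference against its spread over these 4 pairs, with variances moderated by eBayes.

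**Figure D3:**
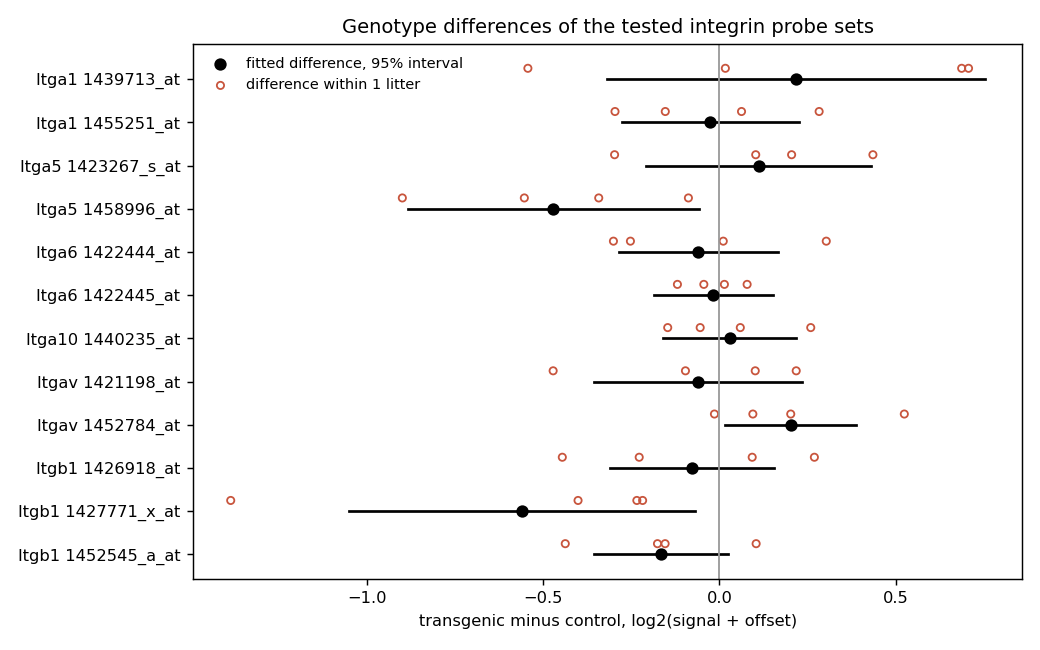
Transgenic minus control on the log2(signal + 22.2) scale for the 12 tested integrin probe sets: black points with bars are fitted differences with 95% intervals, open circles the differences within each of the 4 litters. The 3 intervals that leave out 0 belong to Itga5 1458996_at, Itgav 1452784_at and Itgb1 1427771_x_at, and none of the 12 passed after adjustment.

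The same paired fit was read for the ligands of these receptors. All 18 collagen genes were tested, and the transgenic mean was higher for 5 and lower for 13, the median being -0.05 log2. None passed (limma, 0 of 18), and 2 had an unadjusted p under 0.05, beside 3.08% of all genes. The 3 with the smallest unadjusted p were Col9a2, of the cartilage collagen IX, at 0.27 log2 (SE 0.10), Col2a1 at -0.18 (SE 0.08) and Col5a2, which encodes a chain of collagen V, at -0.09 (SE 0.07). Col9a2 was higher in the transgenic sample of all 4 litters, most of all in litter 4, with 9164 in the control and 15221 in the transgenic sample, and Col2a1 was lower in all 4, most of all in litter 2, with 63257 and 45059. Of 20 genes listed as fibronectin and other RGD ligands, 13 were tested. The name stands for the whole list, which includes Ccn1, Ccn2 and Postn whether or not they bind through an RGD motif. Of the 13, 3 were higher and 10 lower in transgenic samples with a median of -0.07 log2, and 0 passed, also at an unadjusted p under 0.05 (limma). Ltbp1, which anchors latent TGF-beta in the matrix, stood at -0.21 (SE 0.11), Tgfb1 at -0.25 (SE 0.13) and Tnc, the gene of tenascin C, at -0.16 (SE 0.09). Of 13 laminin and nidogen genes, 9 were tested, 8 with a negative difference, and 0 passed. Lamc1, Lama3 and Lamb1 stood at -0.19, -0.28 and -0.06 log2.

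On the side of the cell, 6 of 16 other integrin subunits were tested, 4 with a positive difference, and 0 passed. Itga9, a subunit that binds tenascin C, stood at 0.17 log2 (SE 0.14) with the transgenic sample higher in all 4 litters, Itgb8, which acts on latent TGF-beta, at 0.14 (SE 0.21) and Itga2b at 0.12 (SE 0.19). Of 38 adaptors and focal adhesion genes, 31 were tested, 12 of them higher and 19 lower in transgenic samples with a median of -0.03 log2, and 0 passed. Parva, whose product links integrin-linked kinase to actin, stood at 0.14 (SE 0.08), the docking protein gene Bcar1 at 0.19 (SE 0.12) and Zyx, the gene of zyxin, at 0.15 (SE 0.10). Of 15 other matrix receptors, all tested, 7 were positive and 8 negative, and 0 passed. Sdc2, the gene of a syndecan proteoglycan, stood at -0.23 (SE 0.09), Cd47, whose product associates with alpha v beta 3, at -0.18 (SE 0.08) and the hyaluronan receptor gene Cd44 at -0.17 (SE 0.11). Over all 10989 genes tested, 5567 differences were positive and 5422 negative, and the median was 0.00 log2. The sign was the same in all 4 litters for 10.7% of them. Among the genes named from these lists this also held for Parva, higher in transgenic samples, and for Tgfb1 and Cd47, lower in them.

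The 4 litters are the other factor of the design, and they were compared with genotype in the model (limma moderated F-test, adjusted over all probe sets). Over all probe sets 2027 of 22519 passed (9%), and 4 of the 12 integrin probe sets had an unadjusted p under 0.05, beside 27.7% of all. After adjustment 1 of the 12 passed: Itgav 1421198_at, with mean signals of 500.2, 453, 574 and 266 in litters 1 to 4 (adjusted p = 0.0176). The litter means spanned 1.07 log2, from litter 3 as the highest to litter 4 as the lowest, and the lower sample of litter 3 exceeded the higher sample of litter 4 by 554 to 312. Without litter 4 this call was lost (adjusted p = 0.431), and likewise without litter 3 (0.0566). The other probe set of Itgav, 1452784_at, had litter means of 5697, 5413, 7443 and 6623 and did not pass (adjusted p = 0.0663). Litter 3 was the highest for both probe sets of Itgav, whereas litter 4 was the lowest only for the first.

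Itga5 1458996_at had litter means of 217, 260.4, 172 and 101, with litter 4 the lowest (adjusted p = 0.0545), and Itga5 1423267_s_at had 399, 354, 339 and 255 (adjusted p = 0.221). For Itgb1, litter 3 was the highest for 1426918_at, with means of 2441, 2376, 3088 and 2561 (adjusted p = 0.269), and litter 2 was the lowest for all 3 probe sets. Itga10 had means of 1938, 1691, 1945 and 1598 (adjusted p = 0.251). Itga6 showed the narrowest litter means of the 6 genes, spanning 0.14 log2 for either probe set.

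The ligand lists were chosen with earlier results of these data known, and their genes passed between litters as follows. Of the 18 collagens, 10 passed, beside 1089 of all 10989 genes (9.91%), and the lowest litter was litter 4 for all 10: Col1a1, Col1a2, Col4a2, Col5a1, Col6a1, Col6a2, Col6a3, Col9a2, Col11a2 and Col16a1. Litter 3 was the highest for 6 of them. For Col9a2 the low mean of litter 4 came from its control (9164). The transgenic sample of litter 4 (15221) exceeded that of litter 3 (13553). Over all 1089 genes that passed, litter 4 was the lowest for 474 and litter 3 the highest for 333. Of the collagens that did not pass, Col2a1, Col9a1 and Col11a1 were lowest in litter 3 and the rest in litter 4. Col5a1, with the smallest p of the list, had litter means of 12858, 11100.5, 15286 and 8670.4 (limma adjusted p = 0.00446). Without litter 4, 1 of the 18 collagens passed, and without litter 3, 6. Of the 13 genes tested from the list of RGD ligands, 8 passed, with litter 3 the highest for 7 and litter 4 the lowest for 5. Ccn1 and Ccn2 were among the 8. Tnc had litter means of 3752, 2809.97, 6463 and 3766 (adjusted p = 9.35e-04) and Tgfb1 430.1, 303, 443 and 188 (adjusted p = 0.00788), and without litter 3, 4 of the 13 passed.

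Of the 9 laminin and nidogen genes tested, 4 passed between litters, led by Nid2, a basement membrane gene, with means of 5291, 4233, 5062 and 3183 (adjusted p = 0.00343). Of the 31 adaptor genes 6 passed: Tln1, which encodes talin, the activator of integrins, Parva, Pxn, Tgfb1i1, Zyx and Actn1. Tgfb1i1, the gene of a paxillin relative, had means of 743, 765, 734 and 376 (adjusted p = 0.00628). Of the 15 other matrix receptors 3 passed, the collagen receptor Ddr1 with means of 3779, 4541, 3856 and 2477 (adjusted p = 0.00382), Mrc2, an endocytic collagen receptor, and Lrp1, all with litter 4 the lowest. Of the 6 other integrin subunits 0 passed (limma), and Itgb5, a partner of alpha v, had the smallest p with means of 5025, 4428, 4367 and 3766 (adjusted p = 0.0756). The 6 member genes, each at its probe set with the highest mean, also gave 0, and their litter means spanned a median of 0.28 log2, beside 0.50 for the collagens, 0.62 for the RGD ligands and 0.37 for all genes. Whether the share of genes passing differs between receptors and ligands was not tested.

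**Figure D4:**
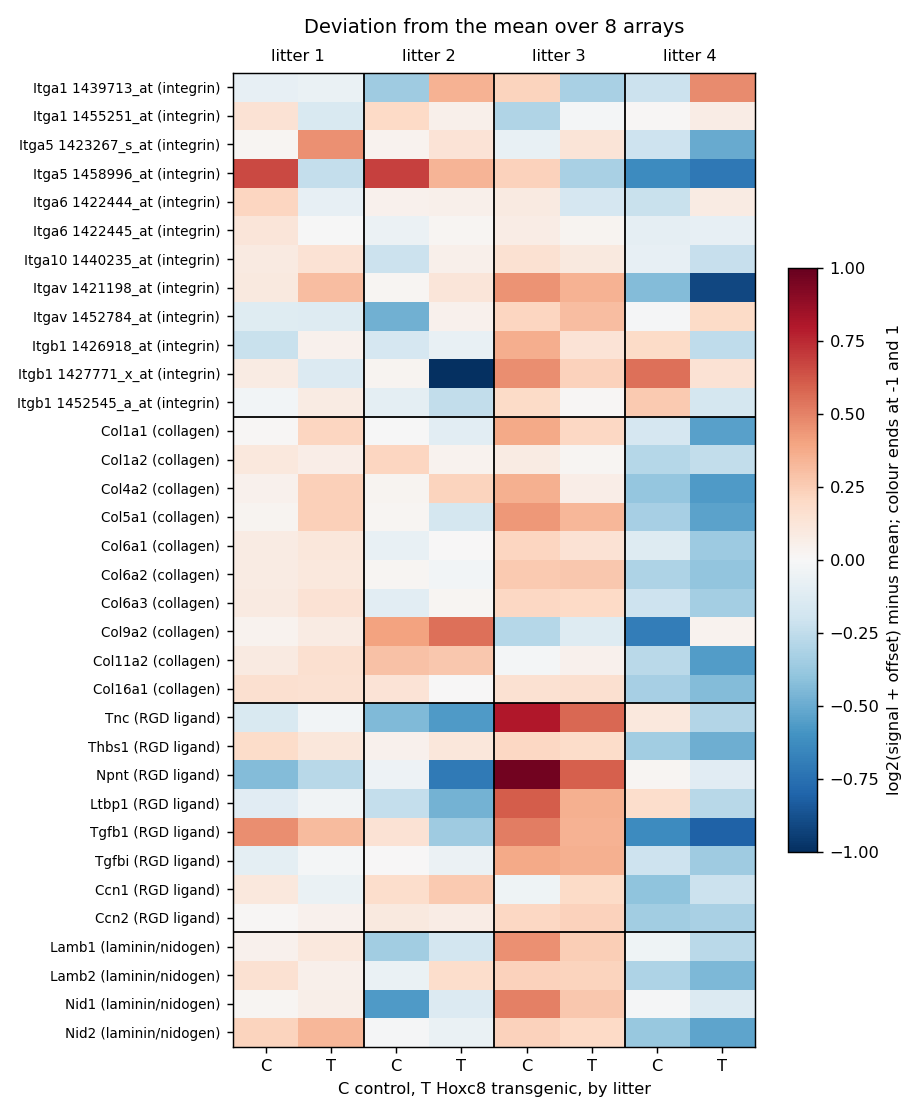
Deviation of each array from the mean over 8 arrays, as log2(signal + 22.2), for the 12 tested integrin probe sets and the 22 ligand genes that passed between litters, with control (C) and transgenic (T) columns grouped by litter and the colour scale ending at -1 and 1. The columns of litter 4 are blue for most ligand genes and for Itgav 1421198_at and both Itga5 probe sets, while Itga6 and Itga10 stay pale.

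Markers of some other cells also differed between litters, beside the 9.91% of all genes that passed. Muscle markers summed to 42048 and 40616 in litter 1 and 44276 and 42853 in litter 4. The sums were 30142 and 29309 in litter 2 and 31189 and 31689 in litter 3. Of the 10, 5 passed between litters, each highest in litter 1 or litter 4. Among the others, Ttn, Myog and Des were highest in litter 4, and Myh3 and Myod1 in litter 3. Ttn was lowest in litter 1 and Myod1 in litter 4. Markers of perichondrium and fibroblasts summed to between 62935 and 74723. Of 9 tested, 4 passed, Pdgfra, Fap, Col14a1 and Cd34, all with litter 3 the highest and litter 2 the lowest. Among those that did not pass, Dcn and Lum went otherwise, with litter 4 the highest and litter 3 the lowest. Thy1 was highest in litter 1, and Twist1 and Mfap5 were highest in litter 3. Macrophage markers summed to 1435 and 1676 in litter 1 and 1788 and 1614 in litter 3. In litter 2 they summed to 1170 and 1109, and in litter 4 to 1232 and 899. Of 5 tested, 2 passed, both highest in litter 3: C1qb, lowest in litter 4, and Mrc1, lowest in litter 2. Csf1r and Adgre1 were lowest in litter 4, while Lyz2 was highest in litter 4 and lowest in litter 3. Of the other lists, 0 of 6 osteoblast, 0 of 7 endothelial, 1 of 7 pericyte, 1 of 4 osteoclast and 1 of 4 platelet markers passed, and neither the 1 epithelial nor the 1 Schwann cell marker tested did. Chondrocyte markers summed to between 245357 and 311356, with litter 3 the lowest and litter 2 the highest. Of the 10, 2 passed, Acan and Sox9, both lowest in litter 4, while over all 10 the lowest litter was litter 3 for 5, litter 4 for 4 and litter 2 for 1. The part of these cells in the litter differences of Itgav and of the ligands was not tested, and litter cannot be told apart from whatever was done to a whole litter at once, such as its dissection and digestion. In the comparison of genotypes the summed ranges of all 11 marker lists overlapped.

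**Figure D5:**
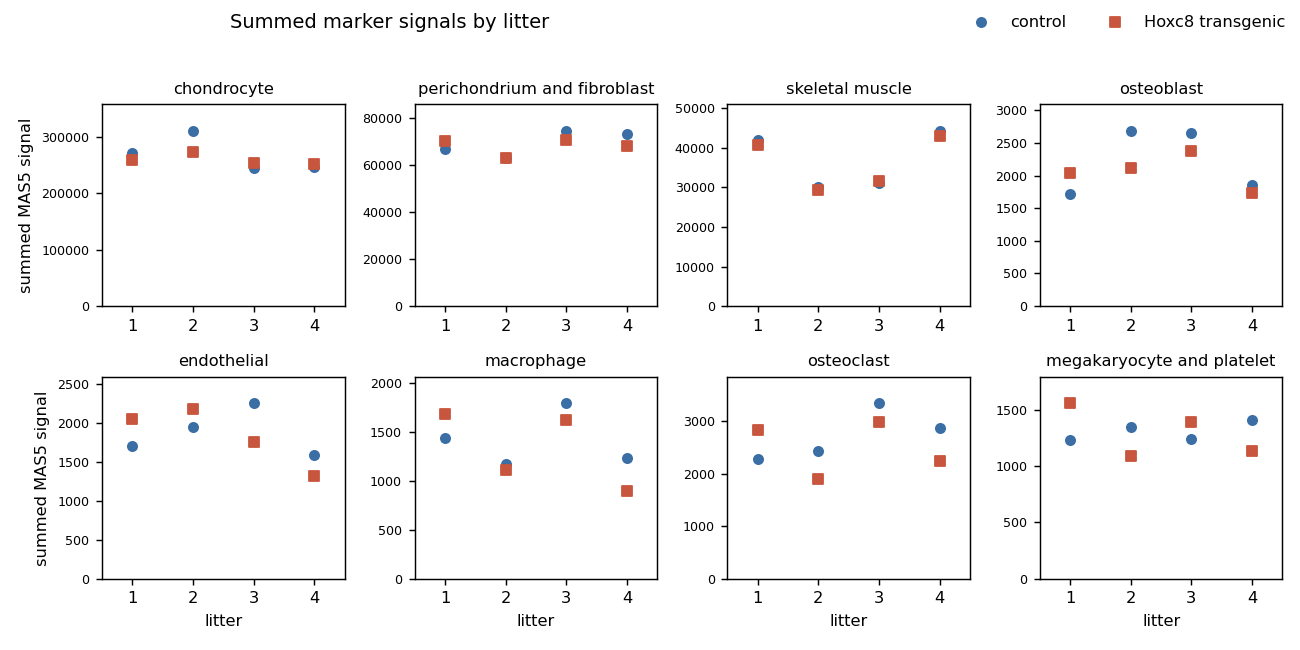
Summed MAS5 signal (linear, from 0) of the markers of 8 cell types by litter, with circles for control and squares for Hoxc8 transgenic samples. The sum of the skeletal muscle markers is higher in litters 1 and 4 than in litters 2 and 3 in both genotypes. Macrophage markers reach their lowest sum, 899, in the transgenic sample of litter 4.

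The count of probe sets that passed between litters changed with the variance model and with single litters. Without the intensity trend in the variance, 0 of the 22519 probe sets and so 0 integrins passed (limma), and without litter 2 or litter 1 the count over all probe sets was 562 or 3047.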

How the data were processed

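Total RNA of 8 samples was hybridised to Affymetrix mouse arrays. The authors deposited linear intensity values made with MAS5, per the submitters' processing notes, which state no version here. The mean of each deposited array, trimmed by 2% at each end, was 500.003, so the authors had scaled the arrays. Genes were named from the platform annotation of 2016, and 34945 of 45101 probe sets had 1 symbol. Members and lists were chosen with earlier results of these data known.

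Signals were transformed as log2(signal + 22.2), the 20th percentile of all values, which understates changes of dim genes. Probe sets with a mean of at least 110 were tested, besides the 64 control probe sets left out. The main fit was limma version 3.58.1 in R version 4.3.3, with litter as a block, eBayes with an intensity trend, two-sided, and Benjamini-Hochberg adjustment over all 22519 probe sets at 0.05. Where a gene had several probe sets, the one of highest mean signal stood for it in counts of genes.

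The labels tie each replicate number to a litter, which pairs the samples. As a check, the residuals of the 2 arrays of a litter about their genotype means had correlations of 0.0251, 0.434, 0.376 and 0.379 (litters 1 to 4), and the highest with another litter were 0.0630, 0.0133, 0.0303 and 0.00416, so litter 1 showed no pairing. Named genes were Hoxc8, all members, and in each pathway list the 3 genes with the smallest p between genotypes and the 1 with the smallest p between litters. Further genes that passed between litters were named after their values were seen. Alternatives were the fit without the block or with a random block, other offsets, filters and normalizations, other variance settings, array weights and leaving out each litter. The steps were tested on simulated data. The number of arrays limits the precision.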

Additional observations from a re-analysis of the deposited data

Results flagged for a closer look

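For every tested integrin probe set and every other named gene, 72 groups in all, it was asked whether 1 of the 4 values of a genotype lies far from the rest by Dixon's 95% limit. This held for 3 groups, and about 3.6 would arise by chance. Col2a1 was 45059 in transgenic replicate 2, above the next value of 40101. Col5a2 was 24458 in control replicate 3, above the next value of 18970.3. Itga9 was 329 in transgenic replicate 3, above the next value of 273. No such sample was found for a tested member.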

How the results depend on the processing

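Between genotypes, 0 probe sets passed over all probe sets and over the members in each of the 15 other settings (limma), and the smallest adjusted p in any was 0.679. Without the replicate block the counts were likewise 0 and 0, so the pairing changed no call. Of 177 member values in other settings, 8 had the opposite sign and 0 passed. Leaving out 1 litter at a time gave differences of -0.13 to 0.064 log2 for Itga1 1455251_at, -0.18 to 0.020 for Itga6 1422444_at, -0.050 to 0.016 for Itga6 1422445_at, -0.048 to 0.088 for Itga10, -0.16 to 0.074 for Itgav 1421198_at and -0.19 to 0.045 for Itgb1 1426918_at. Outside the members it gave -0.13 to 0.0035 for Lamb1, -0.079 to 0.0079 for Nid2, -0.10 to 0.31 for Itga2b and -0.094 to 0.057 for Tgfb1i1. The mean over a gene's tested probe sets was 0.095 log2 for Itga1 and -0.18 for Itga5, opposite in sign to the probe set of highest mean.

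Between litters, the counts without the filter were 995 probe sets in all, 5 collagens and 5 RGD ligands. Without the intensity trend they were 0 in all, 0 members, 0 collagens and 0 RGD ligands. Robust eBayes gave 2 members and array weights 2. Leaving out 1 litter gave 562 to 3047 probe sets in all, 0 to 3 members, 1 to 12 collagens and 4 to 9 RGD ligands. The cause was not tested. The signal over background limits Itga2, Itga3 and Itgb3, which lay under the filter.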
